A study of Rattus norvegicus with 6 samples.

Results

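The miR-26 family was followed in plasma exosomes, small membrane vesicles that carry RNA between cells. Its members were the 3 rows rno-miR-26a-5p, rno-miR-26b-5p and rno-miR-26b-3p of the 763 mature rat miRNAs counted, taken by name and not by their values. A further row of the same stem-loops, rno-miR-26a-3p, held at most 4 counts in any library and is given only where the arms are compared. The libraries came from male Sprague-Dawley rats aged 7 to 8 weeks and labelled untreated apart from the protocol. Control rats gave 3 control libraries (C-exo) and received no remote ischemic pre-conditioning (RIPC). RIPC rats gave 3 libraries (R-exo) after 4 cycles of 5 min of hind limb ischemia and 5 min of reperfusion applied with rubber bands under anesthesia, and blood was taken 48 h later. A bulk vesicle library cannot tell fewer vesicles of a kind from less of a miRNA in each. The labels do not say how many rats stand behind a library, so p-values measure the spread between these libraries.

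miR-26a and miR-26b are conserved miRNAs made in many tissues. Each is cut from a stem-loop within an intron of a gene for a small phosphatase of the RNA polymerase II C-terminal domain, and the 5p arm is the strand usually loaded to guide repression. Known targets of the guide strands are Ezh2, a histone methyltransferase, and Smad1, a mediator of bone morphogenetic protein signals in endothelial cells. By RefSeq's annotation of the assembly GRCr8, the Mir26a stem-loop lies within the span of Ctdspl and the Mir26b stem-loop within that of Ctdsp1, each on the strand of its host gene. The deposited counts are given by miRNA name, so no coordinates are attached to them.

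The mature sequences are shown because the guide strands differ from each other at few bases, which bears on how their reads were told apart. They are printed 5′ to 3′ from RefSeq (GRCr8), with the seed, bases 2 to 8, in capitals.
rno-miR-26a-5p: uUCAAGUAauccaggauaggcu
rno-miR-26b-5p: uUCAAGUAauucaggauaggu
rno-miR-26b-3p: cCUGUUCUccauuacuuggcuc
rno-miR-26a-3p: cCUAUUCUugguuacuugcac
The 2 guide strands shared the seed UCAAGUA, and no other mature rat miRNA of the 693 in the RefSeq table had it. Over the 21 positions that they share, miR-26b-5p differed from miR-26a-5p at 2 bases outside the seed, C11U and C21U, with the base of miR-26a-5p first and positions counted from the 5′ end. RefSeq gives miR-26a-5p 1 base more at its 3′ end. The rule by which the authors assigned reads to such close relatives is not given in the sources used here, so the split between both guide strands is uncertain, and their sum is given beside them. The nearest counted miRNA outside the seed family, miR-217-3p, was 11 mismatches from miR-26a-5p. The 3p arms had seeds of their own.

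The stem-loops are shown with the mature arms in capitals, because the comparison of arms below rests on them.
Mir26a: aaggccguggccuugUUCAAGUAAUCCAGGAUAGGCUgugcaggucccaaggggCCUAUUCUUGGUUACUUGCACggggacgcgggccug
Mir26b: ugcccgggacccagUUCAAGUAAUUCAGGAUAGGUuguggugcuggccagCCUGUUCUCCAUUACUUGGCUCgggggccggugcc
The guide arm lies on the 5′ side of the loop in each.

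Levels are CPM, the reads on a miRNA per 1e6 counted reads of its library, scaled between libraries by TMM. C-exo libraries held 5484209 to 7531737 counts and R-exo libraries 6982273 to 7380752, and 3 counts, taken as the floor, corresponded to 0.398 to 0.547 CPM. The C-exo libraries varied more among themselves than the R-exo libraries. Over the 404 miRNAs that passed the filter on low counts, the median SD of log2 CPM was 0.81 in C-exo and 0.39 in R-exo. C-exo replicate 3 stood apart from C-exo replicates 1 and 2, with a median absolute difference from their mean of 1.12 on the log2 scale. The comparisons between groups of the members and their ratios are therefore given with and without it.

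miR-26a-5p, the main guide strand of the family, was low in C-exo replicates 1 and 2 and higher in the other 4 libraries. The mean of R-exo was 6.90-fold, and C-exo replicate 3 was 6.94-fold, the mean of these 2 control libraries. It had 2177, 2106 and 14862 CPM in C-exo replicates 1, 2 and 3. In R-exo replicates 1, 2 and 3 it had 12558, 17771 and 13999 CPM. With TMM the groups overlapped, since C-exo replicate 3 lay above R-exo replicates 1 and 3. Scaled by library size alone they did not, since C-exo replicate 3 then had 13874 CPM and the lowest R-exo library 14379 CPM. This scaling also raised the median log2 fold change of all tested miRNAs by 0.15, and the share of them without overlap under it was not computed. The means were 6382 ± 7344 CPM in C-exo and 14776 ± 2692 CPM in R-exo (SD, n = 3 each). The log2 fold change of R-exo over C-exo was 1.21 (standard error 0.74, 95% interval -0.45 to 2.88), with an adjusted p of 0.51 in edgeR's quasi-likelihood test. The highest C-exo library was 7.06-fold the lowest, and the interval of the difference between groups included 0.

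As a share of all counted reads, miR-26a-5p made up 0.177% in C-exo replicate 1 (Wilson 95% interval 0.174% to 0.181%) and 0.234% in C-exo replicate 2 (0.231% to 0.238%). In C-exo replicate 3 it made up 1.39% (1.38% to 1.40%), and the R-exo shares ran from 1.44% to 1.77%. Among the miRNAs of a library it ranked 46 in C-exo replicates 1 and 2, 23 in C-exo replicate 3, and 18 or 19 in R-exo. Such intervals and the floor cover counting error only, because reads were amplified by PCR and carried no molecular identifiers. Counting error was far smaller than the spread between the control libraries.

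**Figure D1:**
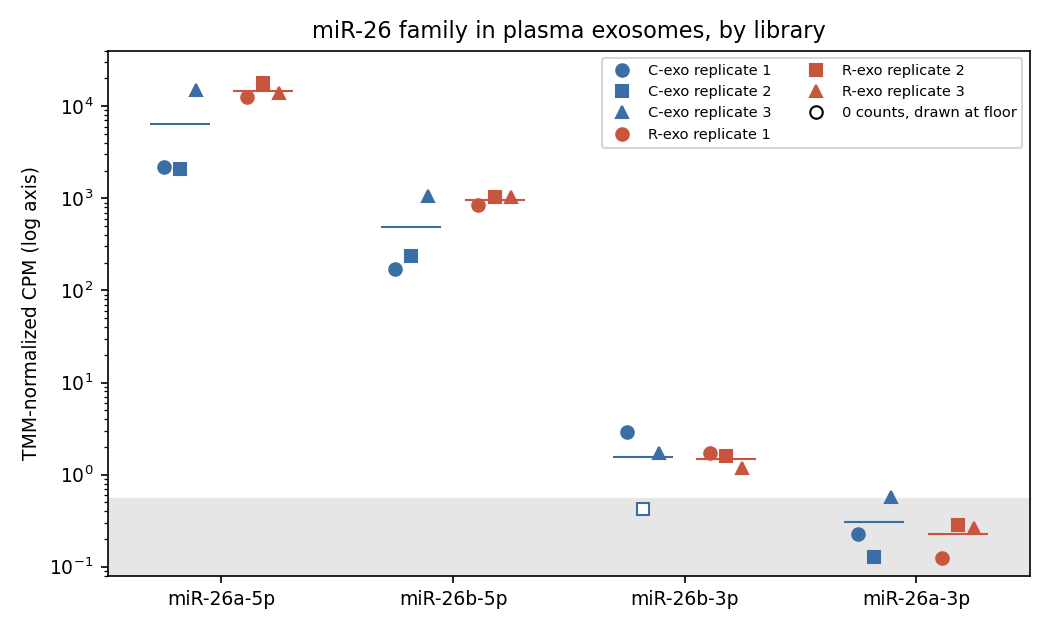
TMM-normalized CPM (log axis) of each arm of the miR-26 stem-loops in the 3 C-exo (blue) and 3 R-exo (red) libraries, with the mean of each group as a line, the highest floor of 3 counts as the top of the grey band, and a library with 0 counts drawn open at its own floor. For miR-26a-5p and miR-26b-5p, C-exo replicates 1 and 2 sit below all other libraries. C-exo replicate 3 sits among the R-exo libraries for miR-26a-5p and just above them for miR-26b-5p.

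miR-26b-5p, the guide strand with the same seed, was lower in the same 2 control libraries. It had 171, 238 and 1056 CPM in C-exo replicates 1, 2 and 3. It had 842, 1023 and 1036 CPM in R-exo replicates 1, 2 and 3, so that C-exo replicate 3 was the highest library of all. Its means were 488 ± 493 CPM in C-exo and 967 ± 109 CPM in R-exo (SD, n = 3 each). The log2 fold change was 0.99 (standard error 0.67, 95% interval -0.53 to 2.50), with an adjusted p of 0.51 in edgeR's quasi-likelihood test. With the counts of both guide strands added into 1 row, the log2 fold change was 1.19 (standard error 0.73) and the adjusted p was 0.51 in the same edgeR test, a value between those of the single strands.

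miR-26b-3p, the arm of the miR-26b stem-loop that is usually degraded, was rare in every library. It had 13, 0 and 12 counts in C-exo replicates 1, 2 and 3, or 2.91, 0 and 1.71 CPM. In R-exo replicates 1, 2 and 3 it had 14, 11 and 9 counts, or 1.72, 1.58 and 1.19 CPM. The R-exo libraries lay within the range of the C-exo libraries. Its log2 fold change came to 0.017 (standard error 1.03, 95% interval -2.30 to 2.33), with an adjusted p of 0.99 in edgeR's quasi-likelihood test, and at this depth neither a 4-fold rise nor a 4-fold fall lay outside the interval.

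None of the 3 members had an adjusted p under 0.05 with all 6 libraries, and neither did any other tested miRNA (0% of 404 in edgeR's quasi-likelihood test). None of the 3 had an unadjusted p under 0.05, which 38 miRNAs had (9.41%), 8 of them higher in R-exo. By limma-voom both guide strands had one, and without the filter on low counts miR-26a-5p had one, but no adjusted p was under 0.05 in either. That split moved with the scaling, to 13 of 38 with RLE size factors and 18 of 33 with library size alone, which raised the median log2 fold change of all tested miRNAs by 0.15. Under these scalings miR-26a-5p had values of 1.30 and 1.37. With TMM the libraries of the groups overlapped for all 3 members, whereas they did not overlap for 12.9% of the tested miRNAs. By DESeq2 no miRNA had an adjusted p under 0.05 either, and 50 had an unadjusted one.

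Without C-exo replicate 3, both guide strands were higher in R-exo. The log2 fold change of miR-26a-5p was 2.80 (standard error 0.40), a 6.95-fold difference, with an adjusted p of 0.0021 in edgeR's quasi-likelihood test. It had the smallest p of the 422 miRNAs tested in that fit. For miR-26b-5p the log2 fold change was 2.25 (standard error 0.44), a 4.76-fold difference, with an adjusted p of 0.0053 in the same edgeR test. miR-26b-3p stayed near 0, at a log2 fold change of 0.18 (standard error 1.13). In this fit 17.3% of the tested miRNAs had an adjusted p under 0.05 and were higher in R-exo, against 2 of the 3 members. The fit left 2 control libraries, and the labels give no reason to prefer them over the one left out. That one was the control in which both guide strands were highest, and it was chosen with earlier results of these data known. Leaving it out raises their fold changes by itself, so the p-values and the rank of this fit are a description only.

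The split within C-exo was itself wide for the guide strands. C-exo replicate 3 exceeded the mean log2 CPM of C-exo replicates 1 and 2 by 2.79 for miR-26a-5p and 2.39 for miR-26b-5p. These differences ranked 22 and 34 from the top of the 404 tested miRNAs, where the median was 0.12. In R-exo, by contrast, the highest library exceeded the lowest by 1.42-fold for miR-26a-5p and by 1.23-fold for miR-26b-5p. Their SDs of log2 CPM there, 0.26 and 0.17, were below the median of all tested miRNAs.

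**Figure D2:**
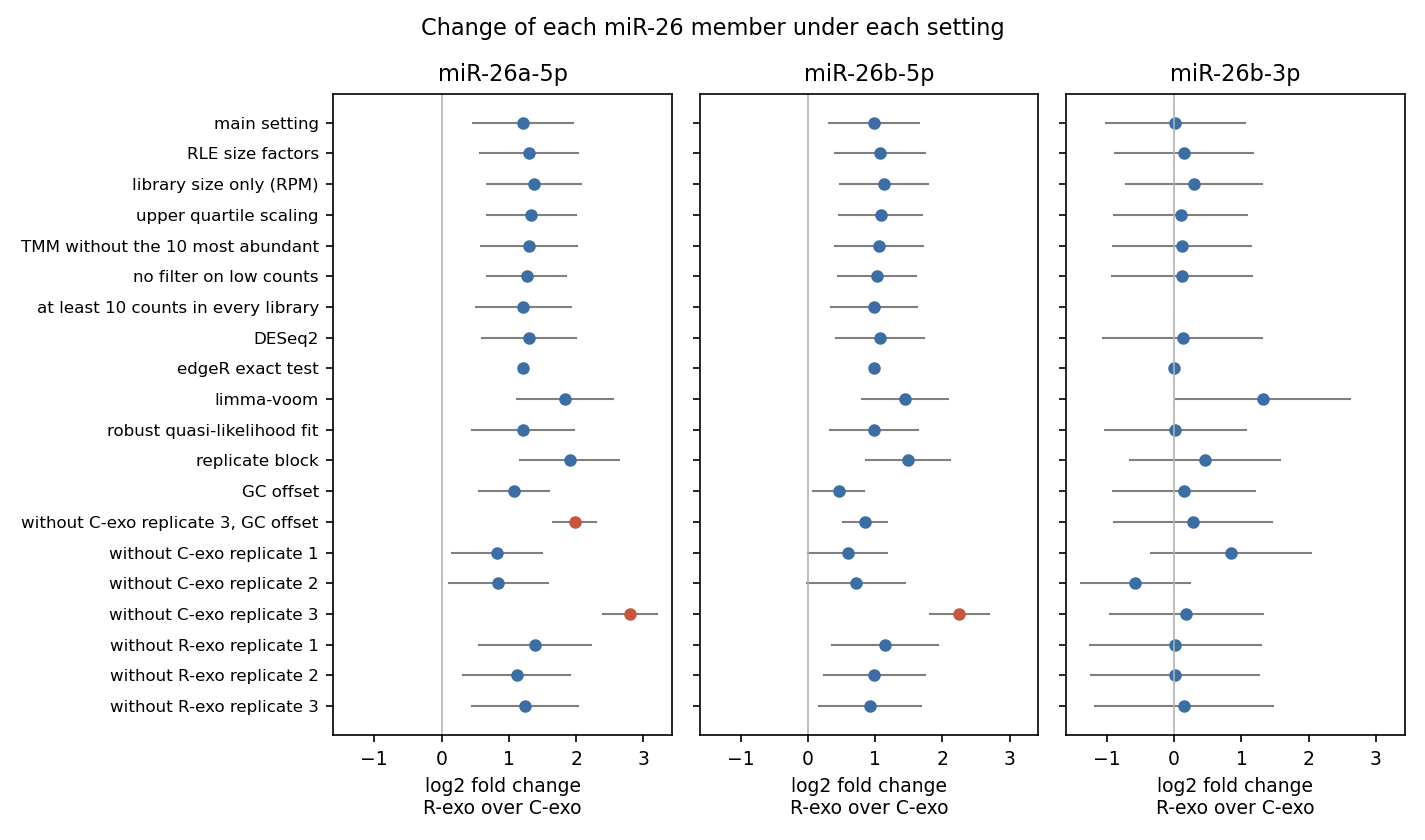
Log2 fold change of R-exo over C-exo for miR-26a-5p, miR-26b-5p and miR-26b-3p under each setting, with bars of 1 standard error where the method gives one, and red points where the adjusted p was under 0.05. Red points appear for miR-26a-5p in both fits without C-exo replicate 3 and for miR-26b-5p in the one without the offset for GC content. For both guide strands every point lies above 0.

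GC content of the mature sequence moved with the same split. It was 40.9% for miR-26a-5p, 33.3% for miR-26b-5p and 50.0% for miR-26b-3p, and the median of the tested miRNAs was 47.8%. A sequence was found for 364 of the 404 tested miRNAs (90.1%). Across these, Spearman's rho between GC content and the difference of C-exo replicate 3 from C-exo replicates 1 and 2 was -0.56, a description across miRNAs that share libraries and are not independent. With the log2 fold change of R-exo over C-exo it was -0.62. By library, rho between GC content and the deviation from the mean of all libraries was 0.61 and 0.49 in C-exo replicates 1 and 2, -0.41 in C-exo replicate 3 and between -0.53 and -0.33 in R-exo. The median of that log2 difference was 1.55 in the 31 miRNAs under 35% GC, 1.13 in the 90 from 35% to under 45%, 0.15 in the 149 from 45% to under 55%, and -1.08 in the 94 at 55% and over. miR-26a-5p was 11th from the top in its range of GC content and miR-26b-5p 9th, so both lay above the median of miRNAs of like composition.

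The comparison of R-exo with C-exo was refitted with the GC trend of each library as an offset, a setting chosen after the data were seen. The log2 fold change of miR-26a-5p was then 1.07 (standard error 0.52) with all libraries. Without C-exo replicate 3 it was 1.98 (standard error 0.32), with an adjusted p of 0.010 in edgeR's quasi-likelihood test. For miR-26b-5p the values were 0.46 (standard error 0.38) and 0.85 (standard error 0.33), and the adjusted p of the latter was 0.12 in the same edgeR test. In the fit without C-exo replicate 3, 1.84% of the 381 miRNAs with a sequence had an adjusted p under 0.05 and were higher in R-exo, and miR-26a-5p was the member among them. What gave rise to the trend with GC content was not tested.

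**Figure D3:**
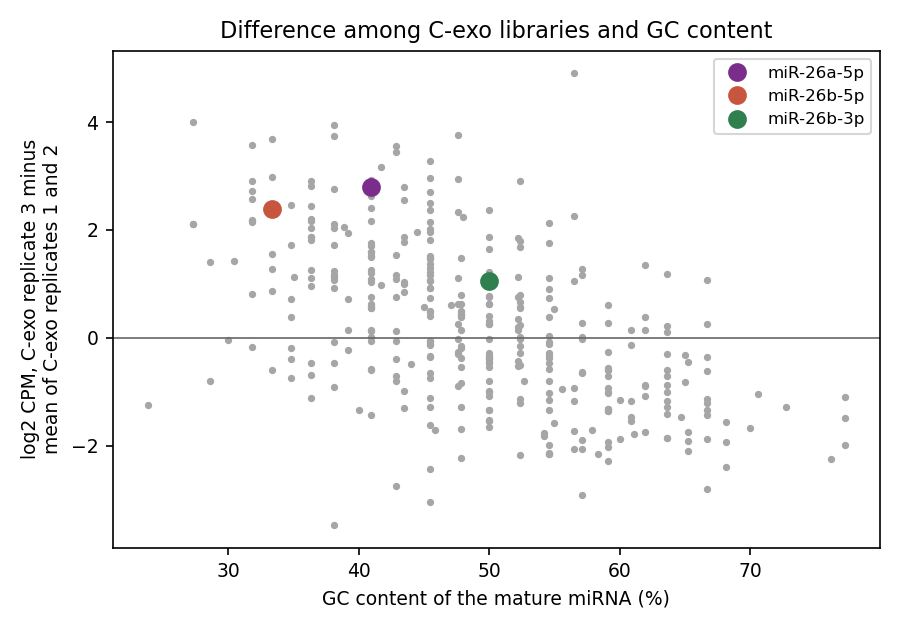
Difference in log2 CPM between C-exo replicate 3 and the mean of C-exo replicates 1 and 2 against GC content of the mature miRNA, with 1 grey point for each of the 364 tested miRNAs with a sequence and the miR-26 members in color. The cloud falls from left to right, and miR-26a-5p (2.79) and miR-26b-5p (2.39) lie in its upper left part. The point of miR-26b-3p rests on the prior count given to the 0 in C-exo replicate 2.

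Ratios of counts within a library do not depend on how libraries are scaled, and 5 such ratios were compared by an exact two-sided permutation test, whose smallest possible p is 0.1 for 3 libraries against 3. miR-26a-5p exceeded miR-26b-5p everywhere, by 12.7, 8.86 and 14.1-fold in C-exo replicates 1, 2 and 3 and by 14.9, 17.4 and 13.5-fold in R-exo replicates 1, 2 and 3. The mean log2 ratio was 3.54 ± 0.35 in C-exo and 3.92 ± 0.18 in R-exo (SD, n = 3 each), and the difference of 0.38 had an exact permutation p of 0.2 (0.33 after adjustment over the 5 ratios). The difference was 0.52 without C-exo replicate 3 (exact permutation p = 0.1) and 0.18 without C-exo replicate 2 (exact permutation p = 0.4). miR-26b-5p therefore contributed between 5.44% and 10.1% of the guide reads of the family, with the highest share in C-exo replicate 2 (Wilson 95% interval 9.71% to 10.6%).

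The arms of the miR-26b stem-loop were not in the same proportion in all libraries. miR-26b-3p made up 1.67% of the miR-26b reads in C-exo replicate 1 (Wilson 95% interval 0.980% to 2.84%). In C-exo replicate 2 it had 0 of 1857 reads, which allows a share of up to 0.162% by the floor of 3 counts and 0.206% by the Wilson interval, and in the other 4 libraries its share was between 0.114% and 0.204%. The highest of the upper limits in the libraries with miR-26b-3p reads, other than C-exo replicate 1, was 0.343%. These intervals leave out the spread between libraries. The counts of the 3p arm were alike in C-exo replicate 1 (13) and the other libraries that held it (9 to 14), while the 5p arm, the rest of the reads in that share, had 764 counts there, the fewest of all libraries. miR-26b-5p exceeded miR-26b-3p by 58.8-fold there, by 619-fold in C-exo replicate 3, and by 488, 648 and 873-fold in R-exo replicates 1, 2 and 3. In C-exo replicate 2 no ratio could be formed from 0 counts. With the 3p arm set at the floor of 3 counts it would be 619-fold there, and the Wilson limit allows a lower one. Over the 5 libraries with a ratio the groups overlapped (exact permutation p = 0.2, where 0.1 is the smallest possible for 2 against 3), and with 0.5 added to each count, over all 6, the difference of the mean log2 ratio fell from 1.77 to 0.32 (exact permutation p = 0.8). Single libraries decided this value, which was 0.074 without C-exo replicate 1 and 3.47 without C-exo replicate 3. The 3p arm of miR-26a was at 1, 1 and 4 counts in C-exo and 1, 2 and 2 in R-exo, at or under the floor in all libraries but C-exo replicate 3, so no fold is given.

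miR-26a-5p was then set against miRNAs often used as references in plasma. Relative to miR-191a-5p it was lower in each C-exo library than in each R-exo library. The ratio was 0.0790, 0.180 and 0.652 in C-exo replicates 1, 2 and 3 and 0.730, 1.10 and 1.21 in R-exo replicates 1, 2 and 3. The groups did not overlap, whereas they overlapped for each of the other ratios compared. The mean log2 ratio was higher in R-exo by 2.24, and the exact permutation p was 0.1, or 0.33 after adjustment. GC content was 52.2% for miR-191a-5p and 40.9% for miR-26a-5p, and a ratio within a library keeps any trend with GC content. The part of that trend in this ratio was not tested. miR-191a-5p itself changed by -0.47 on the log2 scale between groups (standard error 0.44), which did not pass the test, and its level was highest, at 27536 CPM, in C-exo replicate 1. Without C-exo replicate 3 the difference of the ratio was 3.05 (exact permutation p = 0.1, the smallest possible for 2 against 3), and without C-exo replicate 1 it was 1.53.

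Relative to miR-103-3p the ratio of miR-26a-5p was 4.71 and 4.74 in C-exo replicates 1 and 2, 25.2 in C-exo replicate 3, and between 14.8 and 24.7 in R-exo. The groups overlapped (difference of the mean log2 ratio 1.26, exact permutation p = 0.4), and without C-exo replicate 3 they did not (2.06, exact permutation p = 0.1). The difference was 0.85 without C-exo replicate 1 and 0.86 without C-exo replicate 2 (exact permutation p = 0.7 for each). Relative to miR-16-5p, by contrast, the ratio of miR-26a-5p hardly varied. It was 24.2, 28.7 and 23.3 in C-exo replicates 1, 2 and 3 and 29.3, 20.8 and 22.3 in R-exo replicates 1, 2 and 3, with a difference of the mean log2 ratio of -0.083 (exact permutation p = 0.6), or -0.14 without C-exo replicate 3. miR-16-5p, which is abundant in red cells, had 90.1 and 73.5 CPM in C-exo replicates 1 and 2, while the other 4 libraries had 428 to 854 CPM.

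**Figure D4:**
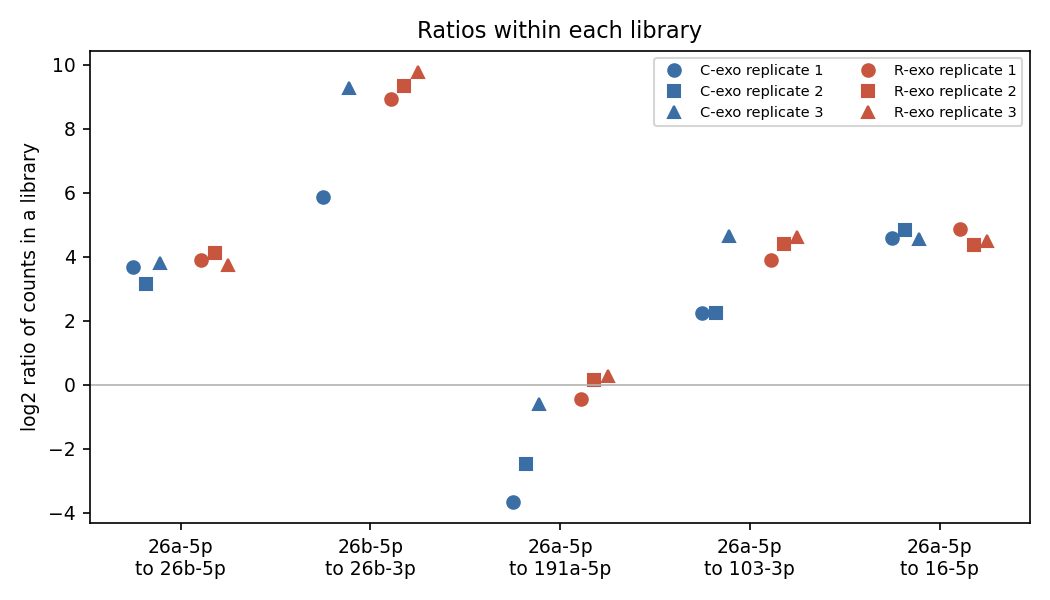
Log2 ratio of counts within each library, for 5 ratios that involve a miR-26 member, in C-exo (blue) and R-exo (red), with 1 symbol for each replicate number. The ratio of miR-26a-5p to miR-16-5p stays between 20.8 and 29.3 in the 6 libraries, while the ratios to miR-191a-5p and miR-103-3p are lowest in C-exo replicates 1 and 2. The ratio of arms of miR-26b is not drawn for C-exo replicate 2, which had 0 miR-26b-3p counts.

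The miRNAs most like each member were found from the Pearson correlation of log2 CPM over the 6 libraries, as a description. For miR-26a-5p they were miR-16-5p (0.99), miR-200a-3p (0.99), a miRNA of epithelial cells, and miR-21-5p (0.99), a miRNA raised by many kinds of injury. For miR-26b-5p they were miR-340-5p (0.99), let-7g-5p (0.99) and miR-21-5p (0.99), and its correlation with miR-26a-5p was also 0.99. These points share the same step between 2 control libraries and the other 4. miR-26b-3p followed other miRNAs, miR-675-3p (0.94), miR-323-3p (0.94) and miR-342-3p (0.90), and its correlation was 0.27 with miR-26b-5p, the other arm of its own stem-loop. These values rest on 0 to 14 counts of miR-26b-3p, and in C-exo replicate 2, where it had 0, miR-675-3p, miR-323-3p and miR-342-3p were also at their lowest.

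Other miRNAs known to repress Ezh2, the target that miR-26a shares with miR-101 and let-7, are given by their counts and median. Of 14, 13 were tested, and 0 had an unadjusted p under 0.05, against 9.41% of all tested miRNAs, or an adjusted p under 0.05, against 0% (edgeR's quasi-likelihood test). Over 13 miRNAs such a count is near that share. Their median log2 fold change was 0.83, against -0.05 for all tested miRNAs, and 1.15 without C-exo replicate 3. Of these 13, 11 were below the median GC content, at 31.8% to 45.5%, and the median log2 fold change of all miRNAs was 0.83 under 35% GC and 0.43 from 35% to under 45%. The part of GC content in the list's median was not tested. The values ran from -0.35 for miR-138-5p to 1.60 for let-7f-5p. Most of the tested miRNAs in the list were guide strands of let-7 and its relative miR-98, with values from 0.57 (let-7e-5p) upward. The median of the list therefore rests mostly on close relatives. The others had 0.60 (miR-101a-3p), 0.54 (miR-101b-3p), 0.37 (miR-214-3p) and -0.35 (miR-138-5p).

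Markers of blood cells and tissues that shed RNA into plasma also differed among the control libraries. All 4 red cell miRNAs were detected, and their summed level, mostly miR-486, ran from 69273 to 198074 CPM in C-exo, lowest in C-exo replicate 3, and from 44536 to 74959 CPM in R-exo. miR-451-5p and miR-144-5p went the other way, with 4600 and 83.3 CPM in C-exo replicate 3, above both other control libraries. The 4 miRNAs of platelets and white cells summed to between 3553 and 21385 CPM in C-exo, highest in C-exo replicate 3, and to between 11448 and 26859 CPM in R-exo. Most of that sum was miR-142-5p, at 18749 CPM in C-exo replicate 3, whereas miR-223-3p and miR-142-3p differed there from the mean log2 CPM of the other control libraries by -0.39 and -0.18. miR-150-5p, like miR-142-5p, was highest in C-exo replicate 3 among the controls, at 1833 CPM. The 6 striated muscle miRNAs summed to between 2149 and 9815 CPM in C-exo, again highest in replicate 3, and to between 1801 and 5949 CPM in R-exo. miR-1-3p (7110 CPM) and miR-206-3p (1561 CPM) made up most of the sum of C-exo replicate 3, while miR-133a-3p (867 CPM) and miR-133b-3p (142 CPM) were lower in it than in the other control libraries. miR-122-5p, the miRNA of hepatocytes, had between 28293 and 67044 CPM in C-exo, highest in replicate 3, and between 28768 and 35621 CPM in R-exo. No marker was at 0 over all libraries. Of the 15 markers tested, 2 (13.3%, against 9.41% of all tested miRNAs) had an unadjusted p under 0.05, miR-144-3p and miR-144-5p, both higher in R-exo, and none had an adjusted p under 0.05 (edgeR's quasi-likelihood test). The part of these cell types in the miR-26 levels was not tested.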

How the data were processed

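Small RNA from plasma exosomes was sequenced on an Illumina HiSeq instrument after adaptor ligation and PCR. The deposited table holds raw counts, the reads on each of 763 mature miRNAs per library, not normalized by the authors. The submitters' processing notes name bcl2fastq, BWA and the build rn6, and versions and the rule for reads that match several miRNAs are not given in the sources used here. Libraries were grouped by their titles. No batch or date is given.

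The analysis used edgeR 4.0.16 under R 4.3.3, with filterByExpr (minimum count 10, total 15), TMM, and the quasi-likelihood test with condition as the only term, adjusted by Benjamini-Hochberg over all tested miRNAs. Standard errors came from the fold change and its F statistic, and log2 CPM used a prior count of 2. Ratios were compared by exact permutation. Alternatives were other scalings and filters, a robust fit, voom from limma 3.58.1, DESeq2 1.42.0, the exact test of edgeR, a replicate block, each library left out, and an offset for GC content (loess per library, span 0.75). The procedure was also run on simulated counts that had no trend with GC content and no split among control libraries. The outcome is not given here and does not bear on those features. The members, the lists and C-exo replicate 3 as a library to leave out were chosen with earlier results of these data known. Named miRNAs were the members, the 3 most correlated with each, the references, and the extremes of each list. Other markers of blood cells and muscle, and other members of the Ezh2 list, were named after their values were seen. The result of 1 list is not reported here. Figures used Python 3.11.15 and matplotlib 3.10.9.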

Additional observations from a re-analysis of the deposited data

How the results depend on the processing

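With all 6 libraries, the log2 fold change of miR-26a-5p stayed between 1.07 and 1.90 over 12 alternatives and that of miR-26b-5p between 0.46 and 1.49, and neither had an adjusted p under 0.05 in any. Leaving out single libraries, the values ranged from 0.83 to 2.80 for miR-26a-5p, 0.59 to 2.25 for miR-26b-5p, 0.84 to 2.75 for their sum and -0.57 to 0.84 for miR-26b-3p, and an adjusted p under 0.05 came only without C-exo replicate 3, for both guide strands and their sum. With the GC offset as well, the values without C-exo replicate 3 were 1.98 for miR-26a-5p and 1.64 for the sum, both still under 0.05, with 111 miRNAs at an unadjusted and 20 at an adjusted p under 0.05. miR-26b-3p ranged from -0.00029 (edgeR's exact test) to 1.32 (limma-voom) with all 6 libraries and was -0.57 without C-exo replicate 2, which had 0 counts of it, and it could not be tested with at least 10 counts required in every library. The miR-26a-5p to miR-16-5p difference ranged from -0.23 to 0.016, and was above 0 without C-exo replicate 2 or R-exo replicate 2. The count of miRNAs at an unadjusted p under 0.05 was 38, 63 without the filter and 25 with the GC offset. It ranged from 15 to 194 with a library left out (16 without C-exo replicate 1, 18 without C-exo replicate 2, 194 without C-exo replicate 3, 16 without R-exo replicate 2 and 15 without R-exo replicate 3), and at an adjusted p from 0 to 132, the latter without C-exo replicate 3. The cause of these changes was not tested.

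Control and RIPC rats are different animals that share replicate numbers only. The deviations of same-numbered libraries correlated at 0.33, -0.28 and 0.28 across miRNAs, and C-exo replicates 2 and 3 correlated best with another number. With the replicate block the log2 fold changes were 1.90, 1.49 and 0.46 for miR-26a-5p, miR-26b-5p and miR-26b-3p, both guide strands had an unadjusted p under 0.05 (0.031 and 0.043 in edgeR's quasi-likelihood test), no adjusted p was under 0.05, and 38 miRNAs had an unadjusted p under 0.05, 25 of them higher in R-exo against 8 without the block. Depth limits the 3p arms, which held at most 14 counts in a library.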
